A study of Homo sapiens with 4 samples.

Results

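The RNA recovered with an antibody against RBM39 was compared directly between 2 cultures of Huh7 cells, one labelled shRBM39 and one labelled shControl. Huh7 is an established human hepatocellular carcinoma line. The cells had been transfected with a plasmid that carries a short hairpin RNA against RBM39 or with a control hairpin, and the RNA was isolated with a commercial RNA immunoprecipitation kit. The series holds 4 libraries, an input (the starting RNA) and an immunoprecipitate (IP) from each culture, and the labels describe no IP with a control antibody. The comparison takes the shRBM39 IP over the shControl IP, with no input in the ratio, and covers each row of the count table that reached 10 counts in either of the 2 IPs. These were 20213 of 56303 rows, of which 18309 reached 10 counts in both IPs. At the edge of that filter, 457 rows had 10 counts in their higher IP and were kept, and 199 rows had 9 and were not.

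RNA immunoprecipitation pulls a protein down together with the RNA bound to it, so a library of the IP reports which transcripts came down with the protein and how abundant they were to begin with. RBM39, also called CAPER alpha, is an SR-like RNA-binding protein that takes part in choosing splice sites next to the U2AF factors. It is best known as the protein that aryl sulfonamide drugs such as indisulam direct to the ubiquitin ligase receptor DCAF15 for destruction. Because a ratio of 2 IPs moves both with the amount of a transcript in the cells and with how much of it was recovered, main values below are set beside the ratio of the 2 inputs for the same row, which played no part in the row filter. It did choose the 3 named rows that moved the opposite way in input, RMRP, TMOD2 and ASB2.

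The IP libraries held 41387762 (shControl) and 45812488 (shRBM39) counts, against 20858382 and 22249581 in the inputs. Each group had 1 library, so there is no replicate spread and no p-value, and the cultures and the hairpins cannot be told apart. Ratios are log2 of shRBM39 over shControl after scaling by TMM (a trimmed mean of log ratios that sets the bulk of rows to about 0), with exact 95% intervals that cover counting error only. CPM values are counts scaled to library size with those factors. The 9 hepatocyte markers summed to 9176 CPM in the shControl and 5251 in the shRBM39 IP, against 13573 and 12617 in the inputs. Of these 9, TTR (43.3 and 56.6 CPM) and HNF4A (296 and 436 CPM) had the larger value in the shRBM39 IP. The 16 markers of other cells summed to 6.66 CPM (shControl) and 7.995 CPM (shRBM39) in IP, with 6 and 7 of them at 0. PECAM1 had the most of them, 168 (shControl) and 203 (shRBM39) IP counts, or 3.69 and 4.87 CPM, and COL3A1 had 56 and 56. PTPRC, HBB, HBA1, RBFOX3 and INS had 0 counts in both IPs. The part of these differences in the results was not tested. In such bulk RNA, fewer cells of a type and less RNA per cell cannot be told apart.

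RBM39 itself, the target of the hairpin, had 46798 IP counts under shControl and 91929 under shRBM39, or 1028 and 2207 CPM. The gene lies at chr20:35701347-35742260 (RefSeq on GRCh38.p14, as for all positions below). Its transcript was thus 2.15 times higher in the IP labelled shRBM39, a log2 ratio of 1.10 (1.09 to 1.12), which was 0.83 with total counts and then short of 2-fold. In the inputs it had 8701 and 8053 counts, a log2 ratio of -0.13 (-0.17 to -0.08), so the input labelled shRBM39 held nearly as much RBM39 mRNA as the control. Directions below therefore refer to the libraries so labelled. RFX1, the transcription factor named in the title of the series (chr19:13961530-14006816), had 319 (shControl) and 317 (shRBM39) IP counts. With a log2 ratio of 0.12 (-0.11 to 0.35), a difference was not detectable at this depth, and the input ratio was -0.36 (-0.90 to 0.17). Of the 9 measured RFX factors 0 were higher and 1 was lower, RFX4, on 10 and 0 IP counts and 0 and 0 input counts. Others included RFX2 at -0.65, RFXAP at -0.34 and RFX7 at 0.12, all within 2-fold. The list had a median of -0.09.

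A row was listed as higher or lower in the shRBM39 IP when it differed by at least 2-fold, a log2 ratio of 1, and its counting interval excluded equality. By this rule 1501 rows (7.43%) were higher and 1276 (6.31%) were lower. Among the 13919 protein-coding rows 889 (6.39%) were higher and 786 (5.65%) lower. The median log2 ratio over all rows was -0.011. Scaling the 2 libraries to their total counts instead lowered every ratio by 0.27 and gave 887 higher and 2301 lower rows, so the share of higher rows among those listed went from 54.1% to 27.8%. Values below are relative to the TMM centre, and a list whose median changes sign under total counts is given with both values. Counts of higher and lower rows in a list stand beside the 7.43% and 6.31% of all rows.

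Differences between the IPs went along with differences between the inputs. Of the 1501 rows higher in the shRBM39 IP, 487 were also higher in the shRBM39 input by the same rule, 39 were lower there and 975 were neither, against 1017 rows (5.03%) higher in input overall. Of the 1276 lower rows, 426 were lower in input, 19 were higher and 831 neither, against 1144 rows (5.66%) lower in input overall. The median input ratio was 0.81 for the rows higher in IP and -0.83 for the rows lower in IP, where their IP medians were 1.47 and -1.50. Across 11288 protein-coding rows with at least 200 summed IP counts, Pearson's r between both ratios was 0.77 and Spearman's rho 0.73. These are values across genes of the same cultures, which are not independent replicates. Several of the largest IP ratios lay far above their input ratios.

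**Figure D1:**
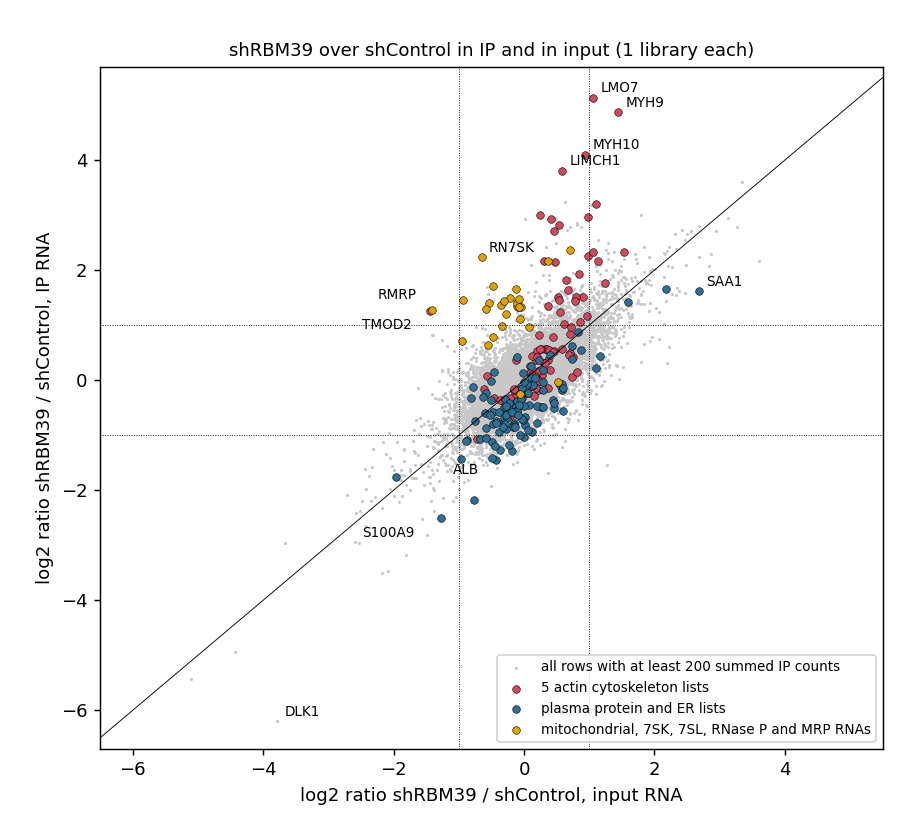
Log2 ratio of shRBM39 over shControl in IP RNA (vertical) against input RNA (horizontal) for each row with at least 200 summed IP counts, with the line of equal ratios and dotted lines at 2-fold. LMO7, MYH9, MYH10 and LIMCH1 stand far above the line (5.13, 4.87, 4.10 and 3.81 in IP against 1.06, 1.44, 0.93 and 0.59 in input), mitochondrial and 7SK-type RNAs stand above it and most plasma protein and endoplasmic reticulum (ER) rows below it.

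Deeply counted rows were more often higher than lower. Of 1908 rows with at least 10000 summed IP counts, 189 were higher (9.91%) and 17 lower (0.891%), against 7.43% and 6.31% of all rows. The inputs of these 1908 rows were skewed the same way, with 145 higher and 6 lower. Of 3490 rows with 10 to 49 counts, where the counting error is widest, 518 were higher (14.8%) and 524 lower (15.0%). In their inputs 216 were higher and 433 lower. Long genes stood above short ones. The quintile of protein-coding genes with the longest genomic span (median 164 kb) had a median log2 ratio of 0.14 with 296 of 2784 rows higher and 127 lower, and the shortest quintile (median 5.20 kb) had -0.11 with 104 of 2784 higher and 213 lower. The inputs showed the same order, with medians of 0.12 and -0.098. By chromosome the medians of protein-coding rows lay between -0.12 (chromosome 3) and 0.11 (chromosome 18), a narrow range. Long non-coding RNAs had 85 of 979 rows higher and 85 lower (8.68% each). Pseudogenes had 104 of 729 higher (14.3%) and 66 lower (9.05%). Transcribed pseudogenes had 16 of 326 higher (4.91%) and 31 lower (9.51%). Of all rows 7.43% were higher and 6.31% lower.

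Many of the rows with the largest excess in the shRBM39 IP encode proteins of the actin cytoskeleton, 7 of the first 10 and 12 of the first 40. Non-muscle myosin II is a motor of paired heavy chains and light chains that pulls on actin filaments in stress fibres, the cell cortex and the cleavage furrow, and tropomyosins, tropomodulins, LIM domain proteins, filamins, spectrins and actinins decorate, cap or cross-link those filaments. Over the 5 actin lists together, 31 of 93 measured rows were higher (33.3%, against 7.43% of all rows) and 2 were lower, with a median of 0.45. In the inputs 7 of the 93 were higher and 3 lower, with a median of 0.31. Their summed share of all IP counts was 2.47% under shControl and 6.59% under shRBM39, against 1.83% and 2.43% in the inputs. These lists were drawn up after actin genes had been seen among the highest ratios of these data, so their counts describe the rows and are no independent support. Rows were ordered here by the interval limit closest to 0, among those with at least 200 summed IP counts, and 8 of the first 40 have names that match no RefSeq symbol.

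MYH9, which encodes the myosin IIA heavy chain (chr22:36281280-36387967), had 35753 IP counts under shControl and 959474 under shRBM39, with 14497 and 39837 input counts in that order. It made up 0.0864% of all IP counts under shControl and 2.09% under shRBM39, where it held more counts than any other row. Its level was 785 and 23037 CPM in the shControl and shRBM39 IPs and 676 and 1840 CPM in the inputs, so the shRBM39 IP stood far above the other 3 libraries. The ratio was 29.3-fold, log2 4.87 (4.86 to 4.89), against 1.44 (1.42 to 1.47) in input. MYH10, the heavy chain of myosin IIB (chr17:8474212-8630725), had 21854 (shControl) and 342196 (shRBM39) IP counts and 10503 and 20270 input counts in that order. Here too only the shRBM39 IP stood apart, with a log2 ratio of 4.10 (4.08 to 4.12) against 0.93 in input. MYH10 overlaps NDEL1 in the annotation, and NDEL1 stood at 2.43, so their reads may be shared. MYH14, the heavy chain of myosin IIC (chr19:50203622-50310540), had 9747 (shControl) and 67800 (shRBM39) IP counts and 3148 and 4236 input counts in that order, a ratio of 2.93 (2.90 to 2.96) in IP and 0.41 in input. All 3 heavy chains were thus far above the 2-fold threshold in this IP.

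The light chains of the same motor did not pass 2-fold. MYL6, the essential light chain, had 65309 (shControl) and 73799 (shRBM39) IP counts, a log2 ratio of 0.30 against 0.31 in input. The regulatory light chains MYL12A, MYL12B and MYL9 stood at 0.03, 0.43 and 0.45, and the kinases ROCK1 and ROCK2, which raise light-chain phosphorylation, at 0.31 and -0.32. SVIL, or supervillin, which binds both myosin II and actin, had 850 (shControl) and 7204 (shRBM39) IP counts, a ratio of 3.21 (3.11 to 3.32) in IP and 1.11 in input. Of the 17 rows of this list 6 were higher and 0 lower, with a median of 0.56 in IP and 0.41 in input. The list's share of counts was 0.589% and 3.45% in the shControl and shRBM39 IPs.

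**Figure D2:**
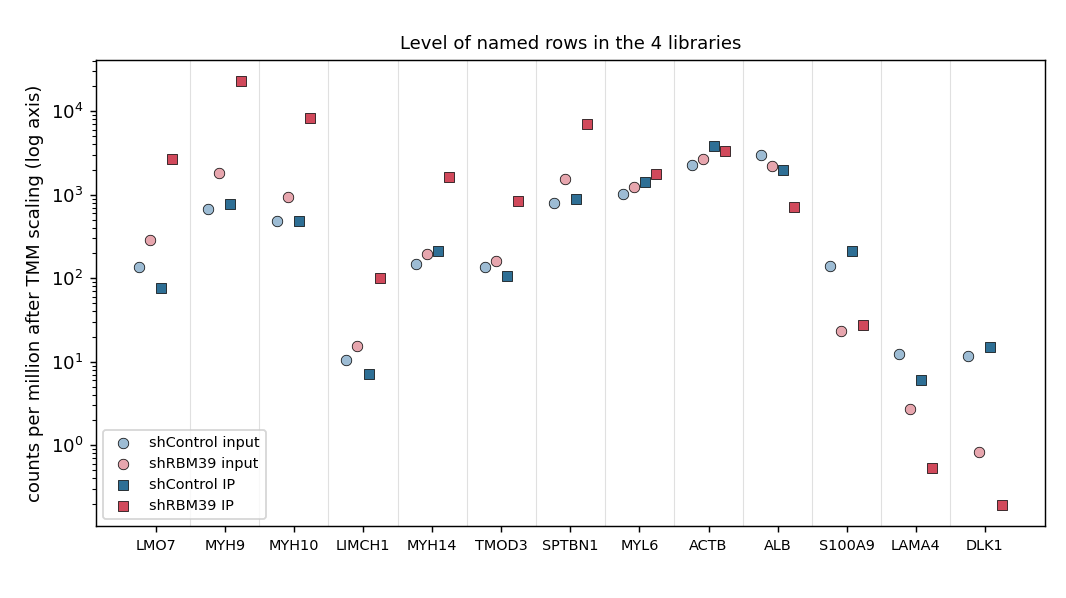
CPM after TMM scaling (log axis) of 13 named rows in each of the 4 libraries, with circles for input and squares for IP, blue for shControl and red for shRBM39. For LMO7, MYH9, MYH10, LIMCH1, MYH14, TMOD3 and SPTBN1 the shRBM39 IP lies above the other 3 libraries, for MYL6 and ACTB the libraries lie close together, and for S100A9, LAMA4 and DLK1 both shRBM39 libraries lie below both shControl libraries.

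Among LIM domain proteins that bind actin, LMO7, found at adherens junctions and focal adhesions (chr13:75620434-75859870), had the highest ratio of all rows by the ranking above. It had 3505 IP counts under shControl and 112482 under shRBM39 and 2904 and 6133 input counts in that order. Under shControl its IP level lay below its input level, 77 against 135 CPM, and under shRBM39 far above it, 2701 against 283 CPM. The ratio of the IPs was 35.1-fold, log2 5.13 (5.08 to 5.18), against 1.06 in input. LIMCH1, an activator of non-muscle myosin II (chr4:41359607-41700044), had 327 (shControl) and 4188 (shRBM39) IP counts, a ratio of 3.81 (3.64 to 3.97) in IP and 0.59 in input. LIMA1, or EPLIN, which stabilises filament bundles, stood at 2.17 and FHL3, a LIM-only protein, at -1.89 on 107 and 26 counts, with input ratios of 1.14 and -2.27. TES, a focal adhesion protein, stood at 1.24 and PDLIM3 at -1.08. Of the 19 rows 4 were higher and 2 (FHL3 and PDLIM3) lower, with a median of 0.22 (-0.06 with total counts).

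The 4 highest rows were picked by their IP ratios, so their shared excess in the IP follows from that choice. Their promoters are printed for description only. Each runs from 250 bases before to 50 after the gene's start in RefSeq on GRCh38.p14, 5′ to 3′ on the gene's strand, and capitals mark GGAATG (bound by TEAD factors) and GGGCGG (bound by Sp1) on either strand.
LMO7 (plus strand, chr13:75620184-75620483): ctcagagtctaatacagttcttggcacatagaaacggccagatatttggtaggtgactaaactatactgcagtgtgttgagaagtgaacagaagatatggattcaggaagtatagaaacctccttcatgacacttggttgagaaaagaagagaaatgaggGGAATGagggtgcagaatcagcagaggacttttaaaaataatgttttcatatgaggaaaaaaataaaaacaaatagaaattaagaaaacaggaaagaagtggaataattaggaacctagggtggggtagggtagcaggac
MYH9 (minus strand, chr22:36387918-36388217): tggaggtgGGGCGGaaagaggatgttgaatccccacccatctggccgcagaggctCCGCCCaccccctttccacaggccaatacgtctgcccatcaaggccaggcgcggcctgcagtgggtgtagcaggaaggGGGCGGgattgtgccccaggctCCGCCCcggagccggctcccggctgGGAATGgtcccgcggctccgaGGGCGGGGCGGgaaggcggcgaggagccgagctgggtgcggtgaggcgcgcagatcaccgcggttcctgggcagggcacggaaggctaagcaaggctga
MYH10 (minus strand, chr17:8630676-8630975): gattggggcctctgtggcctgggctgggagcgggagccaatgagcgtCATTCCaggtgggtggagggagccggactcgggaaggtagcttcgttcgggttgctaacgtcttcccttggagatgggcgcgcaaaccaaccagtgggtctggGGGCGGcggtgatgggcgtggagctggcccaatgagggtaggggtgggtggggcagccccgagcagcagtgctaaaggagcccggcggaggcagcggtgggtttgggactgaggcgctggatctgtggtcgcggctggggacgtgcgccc
LIMCH1 (plus strand, chr4:41359357-41359656): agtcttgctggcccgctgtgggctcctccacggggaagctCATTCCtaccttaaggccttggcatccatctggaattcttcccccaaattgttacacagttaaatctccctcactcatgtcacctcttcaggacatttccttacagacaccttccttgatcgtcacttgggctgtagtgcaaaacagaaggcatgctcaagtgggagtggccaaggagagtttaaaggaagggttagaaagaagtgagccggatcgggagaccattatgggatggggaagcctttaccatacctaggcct
Each of the 4 windows held 1 GGAATG, MYH9 also held 6 GGGCGG, of which 2 overlap, and MYH10 held 1. TGANTCA (AP-1) and the CArG box of SRF were searched too and matched none of the 4. GGAATG was in 6 of 27 promoters (22.2%) of the higher actin rows and in 5 of 55 (9.09%) of the other actin rows. It was in 11.2% of the 12132 promoters of the compared rows and in 14.0% of the 27305 promoters of the table. The 6 include the 4 promoters printed above, and the motif was chosen after the data were seen. The difference between the 27 and the 55 is therefore no independent support. GGGCGG was in 81.5% of the 27, 85.5% of the 55 and 66.8% of the 12132. AP-1 matches were in 2 of the 27, 3 of the 55 and 4.68% of the 12132, and CArG matches in 3 of the 27, 4 of the 55 and 1.05% of the 12132. Among the promoters of all 776 higher rows, GGAATG was in 14.8%, GGGCGG in 51.7%, AP-1 in 7.22% and CArG in 2.06%. A match describes letters in this window and is no evidence of binding.

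Tropomodulins cap the slow-growing ends of actin filaments and tropomyosins lie along them. TMOD3, the ubiquitous tropomodulin (chr15:51829653-51915725), had 4808 (shControl) and 35104 (shRBM39) IP counts and 2914 and 3472 input counts in that order, so the IPs differed 7.98-fold and the inputs 1.18-fold. TMOD1 stood at 2.83 (2.62 to 3.05) on 211 and 1373 counts, with 0.54 in input. It overlaps TSTD2. TMOD2 had 138 (shControl) and 304 (shRBM39) IP counts and 156 and 58 input counts in that order, so it was higher in the IP (1.26; 0.99 with total counts, just short of 2-fold) and lower in the input (-1.43). TPM1 stood at 1.05 in IP and 0.86 in input, while TPM3 (0.14) and TPM4 (0.78) did not pass 2-fold. Of 8 measured members 4 were higher (2 with total counts) and 0 lower, with a median of 0.91 in IP and 0.18 in input.

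Spectrins, filamins, actinins and spectraplakins, the large cross-linkers of actin, formed the list with the highest median of the 41, 1.87 in IP against 0.70 in input. Of its 14 members 10 were higher and 0 lower, and all 14 had a ratio above 0. SPTBN1, the beta-II spectrin of the membrane skeleton (chr2:54456327-54671446), had 40874 (shControl) and 291093 (shRBM39) IP counts and 16926 and 33784 input counts in that order, a ratio of 2.96 (2.95 to 2.98) in IP and 0.98 in input. Its partner SPTAN1 stood at 2.16 in IP and 0.31 in input. UTRN, or utrophin, which ties actin to the dystroglycan complex, stood at 2.72 in IP and 0.46 in input. The cross-linkers ACTN4, ACTN1 and FLNA stood at 2.33, 1.51 and 1.77 in IP and at 1.54, 0.52 and 1.24 in input. PLEC, or plectin, and DST, or dystonin, which link actin to other filaments, stood at 2.34 and 1.81 in IP and at 1.06 and 0.64 in input, and MACF1 at 0.82 did not pass 2-fold. ACTN4 overlaps CAPN12.

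Actin itself and the proteins that assemble short branched filaments differed little. ACTB, cytoplasmic beta-actin, had 175353 (shControl) and 141088 (shRBM39) IP counts, a ratio of -0.19, ACTG1 stood at 0.06 and the filament-severing CFL1 at 0.09. The list of Arp2/3, capping, coronin and unconventional myosin rows had a median of 0.14 (-0.13 with total counts) and 7 of 35 members higher, 0 lower. Those with the largest ratios were unconventional myosins. MYO6, which walks toward the slow-growing end, stood at 2.14 in IP and 0.48 in input. MYO18A, MYO5B and MYO5A stood at 1.52, 1.51 and 1.45 in IP and 0.90, 0.80 and 0.54 in input. MYO5B overlaps SNHG22 and SCARNA17, which stood at similar ratios of 1.54 and 1.60, so these 3 rows may share reads.

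**Figure D3:**
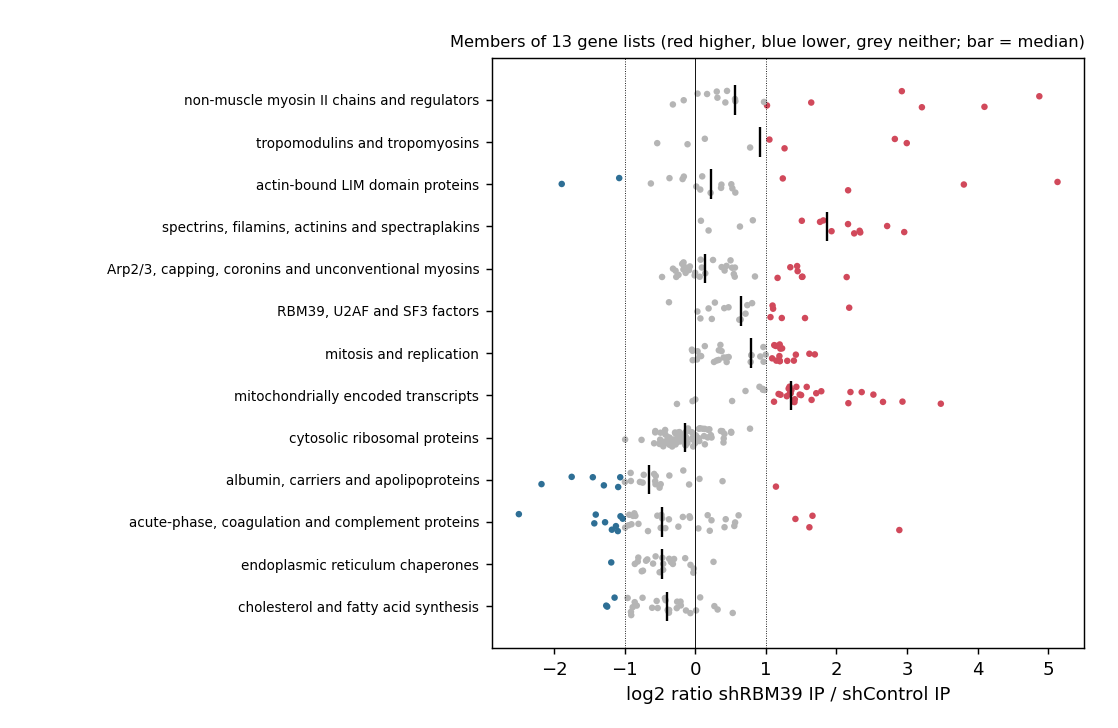
Log2 ratio of shRBM39 IP over shControl IP for each measured member of 13 gene lists, with red for rows listed as higher, blue for lower, grey for neither, a bar at the median and dotted lines at 2-fold. All 14 spectrin-type rows lie above 0, the 17 myosin II rows split into a few very high and many near 0, and 22 of 23 ER chaperone rows lie below 0.

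One of the 10 highest rows, outside the actin lists, was CGN, or cingulin, a tight junction protein that binds myosin (chr1:151510170-151538692), with 1835 (shControl) and 15204 (shRBM39) IP counts, a ratio of 3.18 (3.11 to 3.25) in IP and 1.02 in input. In rows of no fixed list, chosen after their values were seen, its paralog CGNL1 stood at 2.49, the scaffold IQGAP1 at 2.78, the giant protein AHNAK at 2.91, drebrin (DBN1), which binds the sides of actin filaments, at 2.49 and SYNE2, which ties the nucleus to actin, at 2.82. Their input ratios were 1.29, 0.71, 0.47, 0.49 and 0.81, smaller in each case. The clone-named RP11-29G8.3 (3.25) was also among the 10 highest and has no position here. COL4A1, a basement membrane collagen, completed them on 18 and 205 counts, with 3.60 (2.94 to 4.42) in IP and nearly as much, 3.34, in input.

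Adhesion and intermediate filament genes stood differently from the actin cross-linkers. Integrins, the adhesion receptors that the title of the series names, and their focal adhesion partners had a median of 0.05 (-0.22 with total counts). Of the 34 rows 4 were higher (11.8%, against 7.43% of all rows) and 1 lower (2.94%, against 6.31%). In input 6 were higher and 1 lower. TLN1 and TLN2, the talins that activate integrins, stood at 1.86 and 1.64 in IP, close to their input ratios of 1.64 and 1.56. VCL, or vinculin, stood at 1.02 in IP and 1.16 in input and fell short of 2-fold with total counts. ITGB8 stood at 1.92 in IP and 2.78 in input on 35 and 122 IP counts, and ITGA2 was lower in IP (-1.32, -0.79 in input). ITGB1, the common beta subunit, had 6789 (shControl) and 4722 (shRBM39) IP counts, a ratio of -0.40, and ITGA5 stood at -0.27.

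Vimentin, keratins and lamins were higher in both fractions, with 6 of 11 higher in IP (2 with total counts; median 1.03) and 7 in input (median 1.17). VIM, the mesenchymal filament protein, had 2154 (shControl) and 8290 (shRBM39) IP counts and 616 and 2874 input counts in that order, ratios of 2.07 and 2.21. KRT8 stood at 1.28 in IP and 1.52 in input, its partner KRT18 at 0.89 and 1.17, KRT19 at 1.21 and 1.60 and LMNA at 1.14 and 1.62. These rows differed in the IPs by no more than in the inputs, and KRT8 and KRT18 overlap in the annotation. The extracellular matrix list had 4 of 26 higher (15.4%, against 7.43% of all rows) and 6 lower (23.1%, against 6.31%). With total counts 2 were higher and 9 lower. Its median was 0.05 (-0.23 with total counts). LAMA4, a laminin chain, had 277 (shControl) and 22 (shRBM39) IP counts, a ratio of -3.50 in IP and -2.18 in input, and COL6A2 stood at -2.38 and -2.51. LAMA3, on 24 and 58 IP counts, stood at 1.38 and -0.70, and FN1, or fibronectin, at 0.24 and -0.02.

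Among the mRNAs of the splicing machinery around RBM39, SF3B1, the core subunit of U2 snRNP that holds the branch site, stood furthest apart. It had 15766 (shControl) and 65402 (shRBM39) IP counts and 2106 and 4196 input counts in that order, a ratio of 2.18 (2.16 to 2.21) in IP and 0.98 in input. The helicases DDX46 and DDX42, which act with U2 snRNP, stood at 1.55 and 1.23 in IP and 1.26 and 0.66 in input, and SF3B3 at 1.07 and 0.59. SF3B2 (0.47), U2AF2 (0.71) and the RBM39 paralog RBM23 (0.19) did not pass 2-fold. U2AF1 had only 18 and 22 counts in the IPs, too few to place it. Of the 19 rows of this list 6 were higher, RBM39 among them, and 0 lower, with medians of 0.64 in IP and 0.58 in input. With total counts 2 of the 6 stayed past 2-fold, and RBM39 stood at 0.83.

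SR proteins and their kinases had a median of 0.38 in IP and 0.33 in input, with 3 of 24 higher and 0 lower (1 and 1 with total counts). Those were the splicing coactivators SRRM1 (1.44 in IP, 0.60 in input) and SRRM2 (1.16, 0.96) and the SR protein kinase CLK4 (1.14, 0.04), while SRSF1 (-0.05) and SRSF3 (0.05) were near 0. The hnRNP list had a median of 0.52 in IP and 0.48 in input. Its 2 higher rows of 27 (7.41%, close to the 7.43% of all rows) were HNRNPM (1.56, 1.37 in input) and HNRNPU (1.43, 1.22 in input). Mitosis and replication genes had 15 of 40 higher and 0 lower, with medians of 0.80 in IP and 0.65 in input, where 9 were higher. CENPF, a kinetochore protein, stood at 1.69 and 0.87, the replication factor MCM10 at 1.62 and 1.19, the helicase subunit MCM7 at 1.40 and 1.73 and the proliferation marker MKI67 at 1.20 and 0.64. Under total counts 5 of these 40 rows passed.

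Centrosomal protein mRNAs had a median of 0.46 in IP and 0.0017 in input, with 6 of 33 higher and 0 lower (1 higher and 1 lower with total counts). CEP152, a scaffold of centriole duplication (chr15:48729083-48811069), had 21121 (shControl) and 44096 (shRBM39) IP counts and 710 and 1004 input counts in that order, a ratio of 1.19 in IP and 0.49 in input. Its level was many times higher in both IPs, 464 and 1059 CPM, than in the inputs, 33.1 and 46.4 CPM. CENPJ, CDK5RAP2 and CEP135, further centriole and pericentriolar proteins, stood at 1.46, 1.23 and 1.15 in IP and 0.49, 0.93 and 0.58 in input. NDUFS1, a complex I subunit with 90962 (shControl) and 115211 (shRBM39) IP counts against 2650 and 3477 in the inputs, and SMARCC2, a SWI/SNF subunit with 91819 and 140240 IP counts, differed little between the IPs, at 0.47 and 0.74. GOLGB1, the Golgi protein giantin, held the second most counts in the shControl IP and the third most in the shRBM39 IP, and stood at 0.76. NPM1, with most counts in the shControl IP, had 228944 (shControl) and 248436 (shRBM39) IP counts, a ratio of 0.25.

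Of 35 mitochondrially encoded rows 26 were higher in the shRBM39 IP, 0 lower and 9 neither, with a median of 1.36 in IP and -0.11 in input. The 13 mRNAs ranged from 0.71 to 2.17 in IP, with 11 past the threshold, and from -0.95 to 0.37 in input, and each of the 13 had a higher ratio in IP than in input. MT-CO3, a cytochrome oxidase subunit, had 3659 (shControl) and 8899 (shRBM39) IP counts and 85644 and 79901 input counts in that order, ratios of 1.41 and -0.11. MT-ND1 and MT-ND6, subunits of complex I, stood at 1.65 and 1.71 in IP and -0.13 and -0.48 in input, and MT-CO1 at 0.71 and -0.95. The 20 tRNAs had a median of 1.42 in IP with 15 higher and ratios up to 3.48. Among those with at least 50 summed IP counts were MT-TI (2.66 on 20 and 118 counts), MT-TQ (2.52), MT-TW (2.36) and MT-TA (2.20). Of the mitochondrial rRNAs, MT-RNR1 (-0.26) and MT-RNR2 (-0.04) did not pass 2-fold. The mRNAs were 0.102% and 0.189% of the counts of the shControl and shRBM39 IPs and 2.84% and 1.97% of the inputs, so both IPs held few of them. Nuclear copies of mitochondrial genes may share their reads.

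RN7SK, the RNA that holds the elongation factor P-TEFb inactive, had 15510 (shControl) and 66820 (shRBM39) IP counts and 583158 and 376396 input counts in that order. Its ratio was 2.24 (2.21 to 2.26) in IP and -0.65, short of 2-fold, in input. RPPH1, the RNA of RNase P, stood at 1.46 in IP and -0.94 in input, and RMRP, the RNA of RNase MRP, had 639 (shControl) and 1420 (shRBM39) IP counts and 2788 and 1060 input counts in that order, ratios of 1.28 and -1.41. The signal recognition particle RNAs RN7SL1 and RN7SL2, which are near-identical copies, stood at 0.64 and 0.78 in IP and -0.55 and -0.47 in input. Together these 5 RNAs made up 0.209% and 0.383% of the counts of the shControl and shRBM39 IPs. They were 7.02% and 4.45% of the counts of the inputs in that order, so both IPs held few of them. Spliceosomal snRNAs had 5 of 13 measured rows higher and 0 lower, with medians of 0.78 in IP and -0.64 in input, on few counts. RNU4-1 stood at 2.30 on 12 and 56 counts, and of the minor spliceosome RNU6ATAC at 1.42, RNU12 at 1.15 and RNU11 at 0.95. Small nucleolar and Cajal body RNAs, which guide modification of other RNAs, had 16 of 89 higher and 2 lower (9 and 2 with total counts), with medians of 0.34 (0.068 with total counts) in IP and -0.41 in input. SCARNA10 stood at 1.69, SNORD3A at 1.45 and SNORD58B, within RPL17, at -1.32, with -0.57, -0.59 and -0.80 in input.

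Of the 10 lowest rows by the same ranking, all 10 were also lower in input. DLK1, an imprinted Notch-like ligand of fetal liver (chr14:100726892-100738224), had 683 IP counts under shControl and 8 under shRBM39 and 252 and 18 input counts in that order. Both shRBM39 libraries were far below both shControl libraries, with ratios of -6.20 (-7.50 to -5.30) in IP and -3.79 in input. S100A9, a calcium-binding protein best known from myeloid cells (chr1:153357854-153361023), had 9610 (shControl) and 1141 (shRBM39) IP counts and 3035 and 508 input counts in that order, ratios of -2.95 (-3.04 to -2.86) and -2.59. RARRES2, the secreted chemoattractant chemerin, had 3332 (shControl) and 486 (shRBM39) IP counts, ratios of -2.65 and -2.42. PRNP, the prion protein, stood at -3.19 and -1.81, FUT3, a fucosyltransferase, at -2.96 and -3.67, the hyaluronidase HYAL1 at -3.46 and -2.09, and PNMAL1 at -2.96 and -2.52. LAMA4 is given above, and FXYD2 and the readthrough row FXYD6-FXYD2, which share sequence, stood at -4.95 and -5.43 on 6 and 4 counts in the shRBM39 IP.

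Of 14 measured imprinted genes 4 were lower (28.6%, against 6.31% of all rows) and 0 higher, with medians of -0.37 in IP and -0.10 in input. Besides DLK1, SLC22A18 stood at -1.29, MEST at -1.17 and PEG3 at -1.28 in IP, with input ratios of -0.42, 0.0032 and 0.90. PEG3 rested on only 22 (shControl) and 8 (shRBM39) IP counts, and its input interval ran from -0.91 to 3.17. MEST overlaps COPG2.

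Of 65 rows of plasma proteins made by hepatocytes, 15 were lower in the shRBM39 IP (23.1%, against 6.31% of all rows). Another 5 were higher (7.69%, close to the 7.43% of all rows) and 45 neither. The 65 rows had a median of -0.56 in IP and 0.05 in input. Albumin, carriers and apolipoproteins had 6 of 24 rows lower and 1 higher (12 and 0 with total counts), with a median of -0.66 in IP and -0.034 in input. ALB, serum albumin, had 88991 (shControl) and 29767 (shRBM39) IP counts and 63842 and 48104 input counts in that order, so the shRBM39 IP was the lowest of the 4 libraries at 715 CPM, and the ratios were -1.45 (-1.47 to -1.43) in IP and -0.42 in input. APOE stood at -1.29 in IP and -0.18 in input, APOB, the backbone of very low density lipoprotein, at -1.06 and -0.68, and APOA2 at -1.75 and -1.96. A1BG, a plasma glycoprotein, stood at -2.18 and -0.77. AFP, the fetal albumin-like protein of liver tumours, had 98952 (shControl) and 61062 (shRBM39) IP counts and 57974 and 88845 input counts in that order, ratios of -0.57 in IP and 0.60 in input, both short of 2-fold. APOA1 stood at -0.37 and 0.44.

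Acute-phase, coagulation and complement proteins had 9 of 41 rows lower and 4 higher (17 and 4 with total counts), with medians of -0.48 in IP and 0.13 in input, where 1 was lower and 8 were higher. The 3 chains of fibrinogen, the clot protein, were lower together, FGA at -1.28, FGB at -1.41 and FGG at -1.43 in IP, with -0.36, -0.50 and -0.97 in input. FGB had 22214 (shControl) and 7648 (shRBM39) IP counts and 15896 and 11390 input counts in that order. SERPINA1, the elastase inhibitor alpha-1-antitrypsin, stood at -0.88 and -0.28, and ITIH3, which binds hyaluronan in matrix, at -2.50 and -1.28. The serum amyloid genes were higher instead, with SAA1 at 1.62, SAA2 at 1.66 and SAA4 at 2.89 in IP and still higher ratios of 2.68, 2.18 and 3.37 in input, although SAA1 and SAA2 are near-identical and may exchange reads. Over both plasma lists, 60 of 65 rows had a lower ratio in IP than in input, where 47.0% of all protein-coding rows had a higher one. The membrane-anchored liver cancer marker GPC3 stood at -1.11 in IP and -0.14 in input, and the hepatocyte transcription factor HNF4A at 0.56.

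Genes of the secretory pathway lay mostly below 0 in IP, nearly all by less than 2-fold. Of 23 ER chaperones 22 had a ratio below 0 and 1, LMAN1, a cargo receptor of the early secretory pathway, was listed as lower (-1.19 in IP, -0.44 in input). That was 4.35% of the list, against 6.31% of all rows. The list had medians of -0.47 in IP and -0.14 in input. HSPA5, the chaperone BiP, had 17053 (shControl) and 8873 (shRBM39) IP counts and 11311 and 11494 input counts in that order, ratios of -0.81 (-0.85 to -0.78) and 0.01, and PDIA3, HYOU1 and HSP90B1 stood at -0.86, -0.81 and -0.50 in IP. Signal recognition, translocon and glycosylation genes had 0 of 32 rows past the threshold and a median of -0.41 (-0.17 in input), with SSR2 at -0.85, RPN2 at -0.80, SRPRB at -0.78 and SRP68 at 0.88. Under total counts 6 of the 23 and 4 of the 32 were lower. Over both lists 48 of 55 rows were below 0 in IP and 44 in input.

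Cholesterol and fatty acid synthesis genes had medians of -0.41 in IP and -0.11 in input. Of the 30 rows 3 were lower (10%, against 6.31% of all rows) and 0 higher (10 lower with total counts). STARD4, a sterol carrier, stood at -1.14 and -0.77, and ACAT2 at -0.96 and 0.13. The ATF4 pathway, a stress response to amino acid shortage and ER load, had medians of -0.29 in IP and -0.18 in input. Of its 27 rows 2 were lower (7.41%, close to the 6.31% of all rows) and 0 higher (6 and 0 with total counts). Its lower rows were STC2, a secreted glycoprotein (-1.55, -1.19 in input), and NUPR1 (-1.20, -0.78), while TRIB3 stood at -0.88 and VLDLR at -0.86. Glycolysis and hypoxia genes had 4 of 22 lower and 1 higher, with medians of -0.12 in IP and 0.35 in input. The glucose transporter SLC2A1 stood at -1.18 and -0.32, HK1 at -1.05, ENO2 at -1.01 and GAPDH at 0.39 and 0.64.

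**Figure D4:**
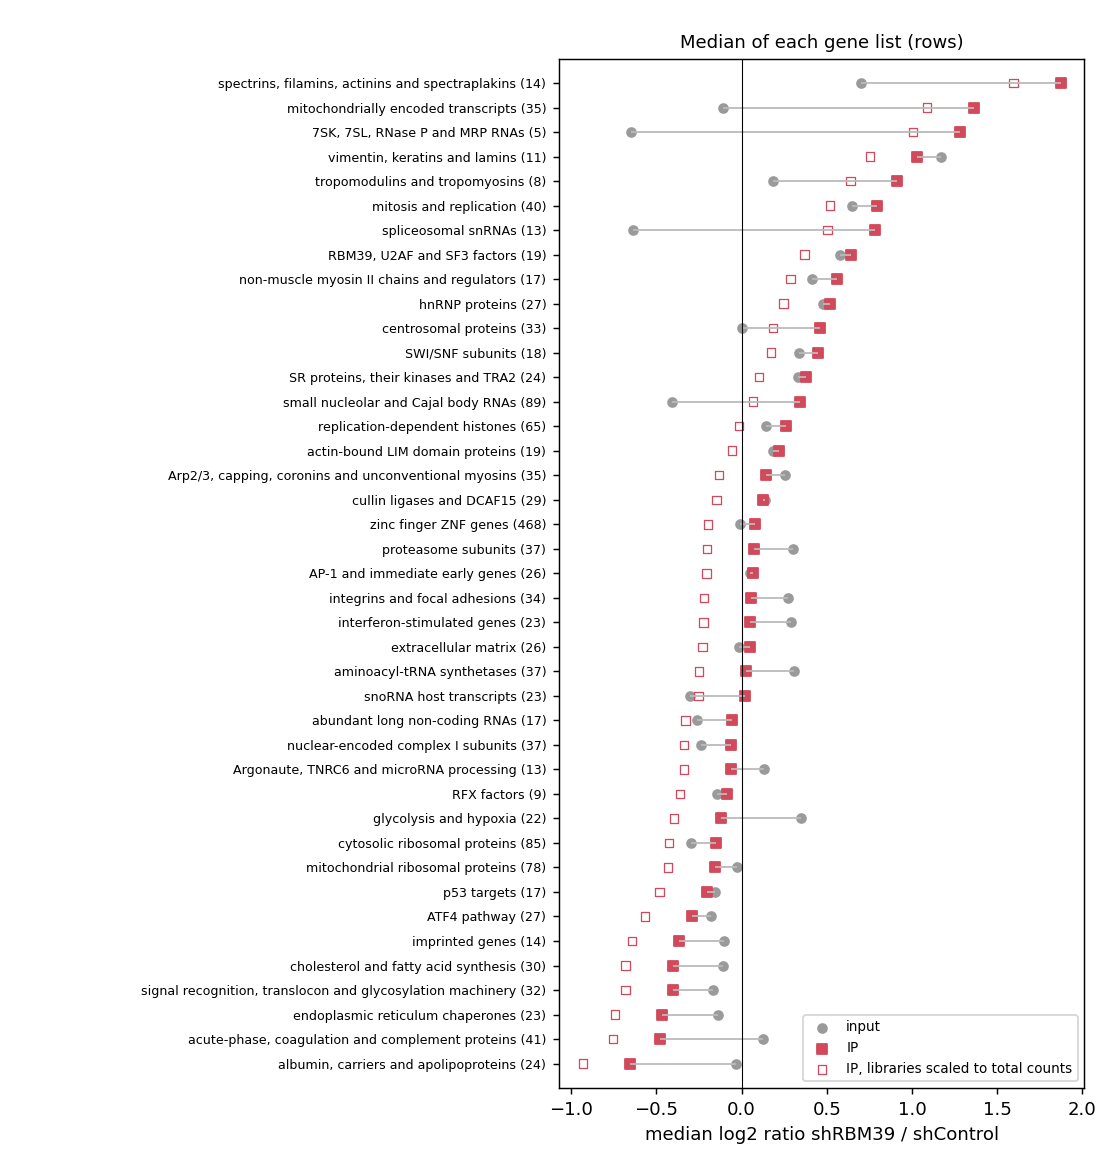
Median log2 ratio of shRBM39 over shControl for each of the 41 gene lists (measured rows in brackets), with filled squares for IP, grey circles for input and open squares for IP with libraries scaled to total counts. The IP median exceeds the input median most for 7SK-type RNAs, mitochondrial transcripts, snRNAs and spectrin-type cross-linkers, and lies furthest below it for plasma proteins.

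Large housekeeping families differed little between the IPs after TMM scaling. Cytosolic ribosomal proteins had 0 of 85 rows higher or lower (0 and 2 with total counts). Their median was -0.15 (-0.43 with total counts, -0.30 in input), and RPL6 stood at 0.78. Mitochondrial ribosomal proteins had 0 of 78 past the threshold and a median of -0.16 (-0.43 with total counts), with MRPS9 at 0.82 and MRPL47 at -0.60. Nuclear-encoded complex I subunits had 0 of 37 and a median of -0.063 (-0.34 with total counts). Aminoacyl-tRNA synthetases, which charge tRNAs, had 0 of 37 higher or lower (0 and 2 with total counts). Their median was 0.03 (-0.25 with total counts), with NARS at 0.94 and IARS at -0.99. Of 37 proteasome subunits 1 was higher, PSMC2 (1.15, 0.88 with total counts), with a median of 0.071 (-0.20 with total counts). With total counts 0 of the 37 were higher and 1 was lower. Replication-dependent histones had 2 of 65 rows lower, HIST2H3A on 14 and 1 IP counts and HIST1H2APS2, annotated as a pseudogene, on 26 and 7. The list had a median of 0.26 (-0.014 with total counts), and HIST1H1B stood at 0.74. These histone genes are near-identical, so their counts are uncertain.

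Abundant long non-coding RNAs had 0 of 17 rows past the threshold and a median of -0.055 in IP against -0.26 in input. MALAT1, the nuclear speckle RNA, had 86490 (shControl) and 76186 (shRBM39) IP counts, ratios of -0.055 and -0.56, while NEAT1, the scaffold of paraspeckles, was at -0.62 and -0.68 and HULC, an RNA of liver cancer, at 0.52 and -0.47. Host transcripts of snoRNAs had 1 of 23 higher, SNHG22, and a median of 0.022 (-0.25 with total counts), with GAS5 at -0.65. Of 468 zinc finger genes 15 were higher and 16 lower (6 and 33 with total counts), with a median of 0.078 (-0.20 with total counts), and among members with at least 50 summed IP counts ZNF467 (-2.20) and ZNF462 (1.99) were at -2.48 and 1.12 in input.

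Further lists of regulatory genes had shares of higher rows between 0 and 11.5%, around the 7.43% of all rows. AP-1 and immediate early genes had 3 of 26 higher (2 higher and 1 lower with total counts) and a median of 0.068 (-0.21 with total counts). ANKRD1, a target of YAP, stood at 2.32 in IP and 2.15 in input, FOSL2 at 1.61 and 1.67 and NR4A2 at 1.11 and 0.96. Of 17 p53 targets XPC was higher (1.12, 0.91 in input; 0 higher and 1 lower with total counts), with a median of -0.21, and BBC3 stood at -0.87 and -1.11. Of 23 interferon-stimulated genes IFIT3 (1.21, 1.34) and IFIT1 (1.08, 1.06) were higher, on few counts and overlapping LIPA (0 higher and 4 lower with total counts), with a median of 0.051 (-0.22 with total counts). Of 29 cullin ligase genes CUL7 (1.62, 1.24) and DDB1 (1.07, 1.05) were higher (1 with total counts), with a median of 0.13 (-0.15 with total counts). DCAF15, the receptor through which indisulam acts on RBM39, stood at 0.72 and 0.68. Of 13 microRNA machinery genes TNRC6B was higher (1.33, 0.49) and the list's median was -0.064. Of 18 SWI/SNF subunits SMARCA2 was lower (-1.11, -1.38) and the list's median was 0.45.

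Rows at microRNA genes were set beside their host genes, and the mature sequences of 4 of them are shown to mark which loci these rows cover. Of 55 such rows 7 were higher (12.7%) and 5 lower (9.09%), against 7.43% and 6.31% of all rows. Only 14 of the 55 had at least 200 summed IP counts. The sequences are those of RefSeq (GRCh38.p14), 5′ to 3′, with the seed, bases 2 to 8, in capitals.
hsa-miR-6819-5p: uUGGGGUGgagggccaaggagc
hsa-miR-6515-3p: uCUCUUCAucuaccccccag
hsa-miR-6885-5p: aGGGGGGCacugcgcaagcaaagcc
hsa-miR-122-5p: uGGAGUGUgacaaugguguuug
The 4 seeds differ. MIR6819 lies within MYH9 (mature 5p at chr22:36286881-36286902, minus strand) and had 10 (shControl) and 149 (shRBM39) IP counts, a ratio of 3.96 (3.11 to 5.12), high like its host. MIR6515 overlaps CALR, the ER chaperone calreticulin (-0.45 in IP, 0.07 in input), and had 208 (shControl) and 88 (shRBM39) IP counts, a ratio of -1.11 in IP and 0.63 in input. MIR6885 overlaps GTF2F1 (1.58 in IP, 1.33 in input) and stood at 2.08 on 24 and 94 counts. MIR122, the liver microRNA, lies in its own host transcript and had 2734 (shControl) and 1516 (shRBM39) IP counts, a ratio of -0.72 (-0.81 to -0.63) in IP and -0.40 in input. Such rows count reads over a hairpin within a longer transcript, so they do not measure the mature microRNA. These 4 rows were chosen after their values were seen.

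Of all rows 54 were at 0 in the shControl IP with at most 29 counts in the other, and 82 were at 0 in the shRBM39 IP with at most 36 in the other. Against a floor of 3 counts per library, APOBEC3B, a DNA cytidine deaminase, was at least 10.2-fold higher in the shRBM39 IP on 28 counts, and TNNT2, cardiac troponin T, at least 7.29-fold on 20. COL8A2, a collagen, was at least 11-fold lower, on 36 counts in the shControl IP, TMEM59L as much, and FBLN2, a matrix protein, at least 9.15-fold lower on 30. In the inputs COL8A2 had 12 and 2 counts and FBLN2 13 and 0. All these rows were rare in each library.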

How the data were processed

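RNA of 4 Huh7 libraries (input and RBM39 IP, shControl and shRBM39, 1 each) was compared from a table of whole-number counts per gene symbol, deposited by the authors without normalization. The submitters' processing notes name hg38 with StringTie 1.3.4d, HISAT2 2.0.4 and cutadapt 1.9, without roles. Which program counted reads, with what strandedness and gene models, is not stated there, so antisense and overlapping genes may share reads. Of the counts from 3 to 6, 73.6% and 75.6% were even in the shControl and shRBM39 IPs, so mates seem to have been counted singly and the intervals are too narrow. 13 rows with date-like names (9 among those compared, at most 0.0261% of IP counts) were kept and never named. 0 columns of other samples were present.

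TMM factors over the compared rows (edgeR 4.0.16, R 4.3.3) were 1.10 for the shControl IP and 0.909 for the shRBM39 IP, and 1.03 and 0.973 for the inputs. Ratios are log2 after adding 0.5 to each count, and intervals are Clopper-Pearson at 95% (scipy 1.17.1). With 1 library a group no model was fitted, and DESeq2 1.42.0 served for alternative size factors only. The listing step was tested on simulated counts that held independent counting error only. That test therefore does not cover differences between cultures or mates counted singly. Of the rows, 15191 carried a current RefSeq symbol and 941 an older one (79.8% together), with coordinates on GRCh38. A planned comparison by protein length and N-terminal hydrophobicity was not run, since no protein sequences were used here, and genomic span took its place after the data were seen.

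Row filter, 41 gene lists and naming rule were all chosen with earlier results of these data known. The rule took RBM39, RFX1, the 10 highest and 10 lowest rows among those with at least 200 summed IP counts, up to 4 members a list with at least 50, the 5 rows with most counts in each IP, the 5 largest rows at 0 in the other IP and rows that moved the opposite way in input. CGNL1, IQGAP1, AHNAK, DBN1, SYNE2, NDEL1, CALR, GTF2F1, the microRNA rows and list members beyond the first 4 were named after their values were seen. Motifs and promoters were chosen likewise. Some genes that the rule took are not reported here.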

Additional observations from a re-analysis of the deposited data

Results flagged for a closer look

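In 3 rows with at least 200 summed IP counts the shRBM39 library was at least 2-fold higher in one fraction and at least 2-fold lower in the other. With 1 library a group, these differences between IP and input were not tested. RMRP, the RNA of RNase MRP, was higher in IP (log2 1.28) and lower in input (-1.41). TMOD2, a tropomodulin, was higher in IP (1.26) and lower in input (-1.43). ASB2, a substrate receptor of cullin ligases, had 579 (shControl) and 182 (shRBM39) IP counts but only 12 and 30 in the inputs, and was lower in IP (-1.54) and higher in input (1.27, 0.30 to 2.41).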

How the results depend on the processing

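The number of rows listed depended on scaling and thresholds. There were 1501 higher and 1276 lower rows with TMM, and 887 and 2301 with total counts, which lowers every log2 ratio by 0.27. With at least 50 counts in 1 IP there were 895 and 651, with at least 10 in both IPs 1060 and 822, and with a log2 threshold of 2 there were 382 and 347. DESeq2 size factors gave 1554 and 1243, TMM over all 4 libraries 1515 and 1273, and halving the counts for the interval 1158 and 897. Leaving out mitochondrial and small structured RNAs, dropping the filter and a pseudocount of 2 kept both counts within 1.5 times. Of 260 named rows, total counts put 22 below the threshold and 17 above it. A shift of 0.27 is too small to reverse a listed row. Unlisted rows near 0 could change sign, such as RFX1 (0.12 with TMM, -0.16 with total counts). The medians of 12 of 41 lists changed sign under total counts. Under DESeq2 size factors, TMM over 4 libraries, leaving out those RNAs and the pseudocount 0 medians did. No paired analysis was possible because each group holds 1 library. Depth limits rows of few counts, where 518 of 3490 rows with 10 to 49 summed IP counts were higher and 524 lower.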
